A study of Rattus norvegicus with 12 samples.

Results

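The genes of mitochondrial protein import and of the cristae were read in RNA from the hearts of 12 rats. They were chosen by symbol alone: every gene whose symbol begins with Timm, Tomm, Chchd or Micos, together with Immt, Apoo, Apool, Samm50, Pmpca, Pmpcb, Pitrm1, Pam16, Grpel1 and Oxa1l. This gave 42 of the 30560 genes in the count table, under 41 symbols, since Chchd2 was given to 2 gene identifiers. Apool was not analysed here. A total of 7162 genes carried no symbol and could not be chosen. The rats were male Wistar, aged 7 weeks at surgery. In 4 rats (Sham) the chest was opened and closed with no ligation, in 4 (MI) the left anterior descending coronary artery was tied to cause a myocardial infarction, and in 4 (MI + UA) the same infarction was followed by urolithin A, a gut bacterial metabolite of ellagitannins. UA was given by gavage each day for 8 weeks, at 50 mg/ml and from 24 hours after surgery by the deposited description, while Sham and MI rats received the vehicle, 0.5% carboxymethylcellulose. The paper's results state the amount per body weight, which a concentration alone cannot be compared with, and a later start of treatment. RNA came from 20 µm sections of the middle block of the formalin-fixed, paraffin-embedded left ventricle, with 1 library per rat. How much of each section was infarct is not given in the sources used here. Rat 66 was an MI + UA rat by its label but stands among the vehicle-treated MI rats in the paper's echocardiography supplement. It was counted by its label, and the main results for the import and cristae genes are also given without it.

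Nearly all mitochondrial proteins are made in the cytosol from nuclear genes and must be carried in. They enter through the TOM complex of the outer membrane, whose receptors recognise targeting signals. Barrel proteins of the outer membrane are then inserted by the SAM complex, carrier proteins are led by small TIM chaperones to the TIM22 translocase, and proteins with a cleavable presequence pass through the TIM23 translocase, pulled by an ATP-driven motor in the matrix, where a peptidase removes the presequence. The MICOS complex holds the necks of the cristae, the folds of the inner membrane that carry the respiratory chain. Cardiomyocytes, which depend on respiration for contraction, are dense in mitochondria with closely packed cristae.

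Libraries held between 6228706 and 19031695 reads on genes, of which the 13 mitochondrially encoded genes took 50.2% to 58.6%. The import and cristae genes together received 5594 to 16215 reads per rat. Read levels are given as CPM, the reads of a gene divided by the size of its library and put on one scale, and values per rat stand in the order of rats 12, 17, 32 and 38 for Sham, 36, 57, 61 and 89 for MI and 29, 58, 64 and 66 for MI + UA. The cardiomyocyte genes Myh6, Tnnt2 and Ttn were read in every rat, as the heart label requires. The share of counted reads that lay on genes was 46.9% to 48.3% in Sham, 43.3% to 44.8% in MI and 42.9% to 47.2% in MI + UA. Every MI rat was below every Sham rat (p = 0.0286 in a two-sided exact permutation test, as low as groups of 4 can reach), and the part of this share in the results was not tested. Of the 42 genes, 40 had at least 10 reads in total and were tested among 18182 genes. Timm8a2, with 5 reads, and Chchd6, with 6 reads, were not.

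The MI and Sham rats were compared to ask how the RNA of the import machinery differed after infarction. Of the MICOS complex 4 of 5 tested genes fell in MI, and the genes of presequence cleavage, of the SAM core and of the OXA1L insertase fell as well, whereas none of the genes of the TOM complex passed the test. Of the 40 genes, 11 fell in MI with an adjusted p-value under 0.05 (edgeR's quasi-likelihood test, Benjamini-Hochberg over all tested genes), against 5.53% of all tested genes that fell. None of the 40 rose, against 5.82% of all genes, and 0 were higher at an unadjusted p-value under 0.05, against 12.6%. The 11 were Chchd10, Timm50, Chchd3, Oxa1l, Samm50, Grpel1, Pmpca, Micos13, Apoo, Immt and Pmpcb, with log2 fold changes from -0.61 to -0.30. With the 8 others that were lower at an unadjusted p-value under 0.05 they made 19, against 11.3% of all genes. Regardless of any test, 34 of the 40 had a log2 fold change below 0, against 47% of all genes, and the median was -0.26, against 0.03 over all genes. At 17 of the 40 genes every MI rat was below every Sham rat, against 7.56% of all genes.

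**Figure D1:**
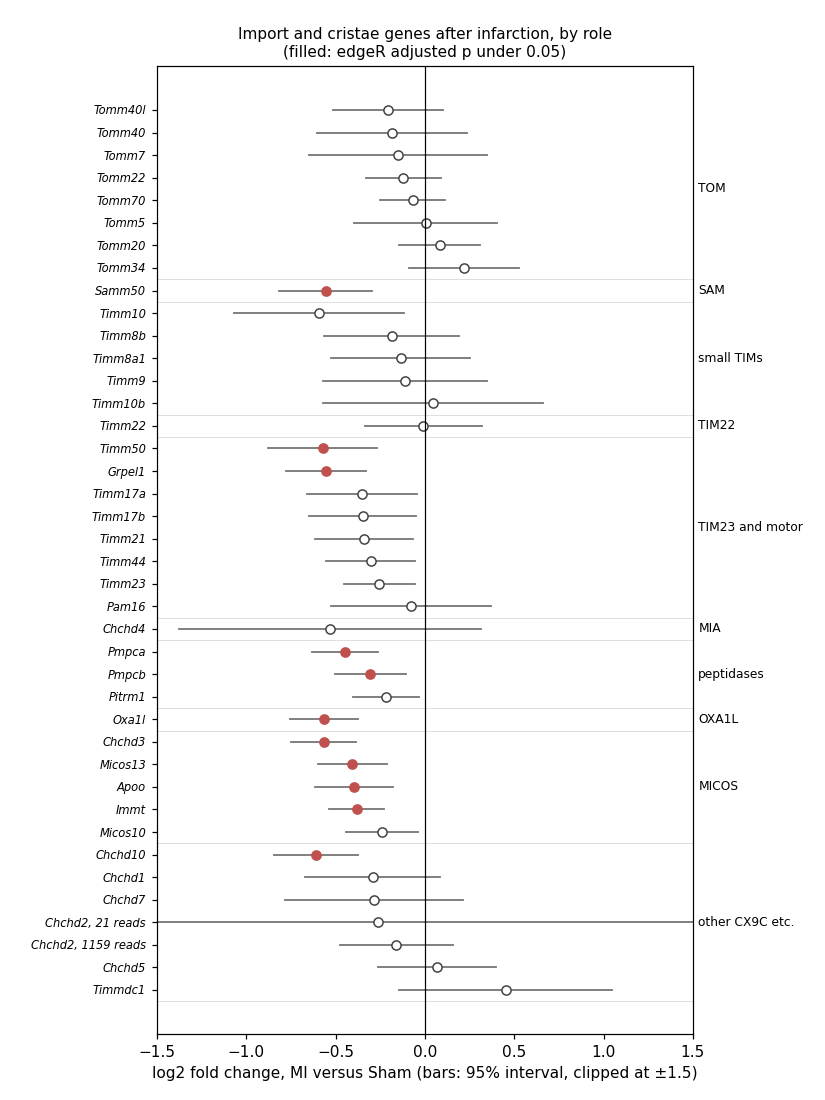
Log2 fold change of each of the 40 tested genes in MI versus Sham (x axis) with its 95% interval, grouped by role; filled points passed an adjusted p-value of 0.05 in edgeR's test. The 11 filled points lie between -0.61 and -0.30, and the 8 TOM genes at the top, Tomm34 included, are all open, with a median of -0.09. The 2 genes named Chchd2 are told apart by their total reads.

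Short stretches upstream of the transcription starts of several of these genes are shown for motifs of NRF-1 and NRF-2/GABP, transcription factors known as regulators of nuclear genes for mitochondrial proteins. RefSeq windows of 250 bases before and 50 bases after the start (build GRCr8) were matched for 36 of the 41 symbols. Chchd2, Chchd7, Immt, Pitrm1 and Tomm34 were not matched. Both strands were searched. Capitals mark the motif, and each stretch ends at or before the last base ahead of the start. The first pair carry the NRF-1 palindrome GCGCATGCGC.
Oxa1l, chr15:31783667-31783724, plus strand: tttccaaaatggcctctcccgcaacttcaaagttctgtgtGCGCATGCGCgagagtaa
Grpel1, chr14:78522869-78522940, minus strand: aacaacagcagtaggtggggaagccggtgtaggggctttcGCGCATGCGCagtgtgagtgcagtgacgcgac
The next carry the NRF-2/GABP string CCGGAAG and belong to genes that fell in MI.
Chchd3, chr4:62584145-62584231, minus strand: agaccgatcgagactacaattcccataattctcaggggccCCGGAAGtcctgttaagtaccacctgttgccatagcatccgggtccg
Micos13, chr9:1528920-1528983, minus strand: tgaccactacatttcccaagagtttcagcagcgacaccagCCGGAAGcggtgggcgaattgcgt
Pmpca, chr3:29605719-29605805, plus strand: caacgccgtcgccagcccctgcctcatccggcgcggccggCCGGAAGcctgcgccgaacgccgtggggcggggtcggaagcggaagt
Pmpcb, chr4:14202585-14202641, minus strand: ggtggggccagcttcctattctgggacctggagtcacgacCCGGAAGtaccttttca
The last carry the same string and belong to TOM receptors that did not pass the test in MI.
Tomm20, chr19:71832421-71832488, minus strand: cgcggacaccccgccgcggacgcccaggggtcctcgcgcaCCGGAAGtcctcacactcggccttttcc
Tomm70, chr11:56886320-56886406, minus strand: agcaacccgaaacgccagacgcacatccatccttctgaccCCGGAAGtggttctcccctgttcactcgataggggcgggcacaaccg

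CCGGAAG stood in 16 of the 36 windows (44.4%), against 10.7% of 21851 windows of protein-coding genes. GCGCATGCGC stood in 4 of the 36 (11.1%), in Chchd4, Grpel1, Oxa1l and Tomm7, against 1.08%. TCAAGGTCA, the motif of the oestrogen-related receptors, was present in 1 window (2.78%), that of Timm8b, against 0.366%. AAGATGG, the motif of YY1, was present in 6 (16.7%), against 7.29%. CCGGAAG was in 5 of the 10 matched genes that fell and in 10 of the 24 matched genes that were tested and did not. For GCGCATGCGC these counts were 2 of 10 and 2 of 24, for AAGATGG 3 of 10 and 3 of 24, and for TCAAGGTCA 0 of 10 and 1 of 24, and no split was tested. A match describes only the letters of the window, and binding was not measured.

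All 5 tested MICOS genes were lower in every MI rat than in any Sham rat, against 7.56% of all genes, while Chchd6, with 6 reads over all rats, was not tested. Immt encodes mitofilin, the scaffold of the complex. Its level was 159, 165, 162 and 164 CPM in the Sham rats, 125, 126, 122 and 125 CPM in MI and 119, 132, 119 and 138 CPM in MI + UA. The Sham and MI rats were each closely grouped and the gap between them was wide, with means of 162 ± 2.43 CPM for Sham (SD, n = 4) and 125 ± 1.60 CPM for MI (SD, n = 4). The log2 fold change was -0.38 (SE, the standard error of the fitted change, 0.07, edgeR adjusted p = 0.00172), so that the level fell by 23.2%. Chchd3 encodes MIC19, which links mitofilin to SAM50 across the intermembrane space. It stood at 56.7, 59.3, 63.5 and 61.3 CPM in Sham, 38.8, 44.5, 40.7 and 38.9 CPM in MI and 40.3, 42.5, 41.7 and 48.8 CPM in MI + UA. Infarction went with a log2 fold change of -0.57 (SE 0.09, edgeR adjusted p = 0.000218). Apoo, which encodes the MIC26 subunit, was read at 42.9, 49.4, 48.6 and 52.7 CPM in Sham and at 37.8, 39.7, 36.7 and 33.2 CPM in MI, a log2 fold change of -0.40 (SE 0.10, edgeR adjusted p = 0.0151). Its call was lost without Sham rat 38 or without MI rat 89 (largest adjusted p = 0.0625). Micos13, for the MIC13 subunit that bridges the arms of the complex, was at 39.6, 37.4, 40.4 and 41.3 CPM in Sham and at 25.6, 32.8, 30.3 and 31.7 CPM in MI, a log2 fold change of -0.40 (SE 0.09, edgeR adjusted p = 0.00655). Micos10, the remaining tested subunit and named after its values were seen, had a log2 fold change of -0.24 without passing the test (edgeR adjusted p = 0.125), and its groups did not overlap either. Summed over the 5 genes, the level was 331 to 356 CPM in Sham and 255 to 274 CPM in MI.

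At the outer membrane, the gene of the assembly pore fell and those of the entry pore did not pass the test. Samm50 encodes the barrel at the core of the SAM complex. It was read at 21.2, 28.6, 25.8 and 25.8 CPM in Sham, 19.4, 16.6, 16.1 and 16.5 CPM in MI and 21.0, 16.1, 23.7 and 18.5 CPM in MI + UA. The lowest Sham rat lay above the highest MI rat by a narrow margin, and the log2 fold change was -0.56 (SE 0.13, edgeR adjusted p = 0.00525). Tomm70, the receptor for carrier proteins and their chaperones, was at 49.3, 49.2, 52.7 and 58.5 CPM in Sham, 47.0, 54.1, 51.2 and 48.5 CPM in MI and 44.5, 50.2, 43.8 and 47.4 CPM in MI + UA. The Sham and MI rats overlapped, with a log2 fold change of -0.07 and a 95% interval from -0.25 to 0.11. Tomm20, the presequence receptor, was at 22.7, 29.3, 24.7 and 25.4 CPM in Sham and at 25.5, 32.3, 27.2 and 23.9 CPM in MI, a log2 fold change of 0.08 with an interval from -0.14 to 0.31. Tomm40, which forms the pore, and its relative Tomm40l had log2 fold changes of -0.18 and -0.21, with intervals from -0.60 to 0.24 and from -0.51 to 0.10. Without single rats these values ran from -0.35 (Sham rat 12) to -0.06 (Sham rat 17) and from -0.34 (Sham rat 12) to -0.05 (Sham rat 32). Tomm34, a cytosolic protein that binds preproteins with their chaperones, had 0.22, with an interval from -0.09 to 0.53. For Tomm70 the interval leaves out a fall as large as that of Immt, while for Tomm40 it does not. Summed over the 8 tested TOM genes the level was 130 to 151 CPM in Sham and 133 to 148 CPM in MI. These 8, here and wherever TOM genes are counted or summed, include the cytosolic Tomm34. The difference between the TOM and the other genes was not itself tested.

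**Figure D2:**
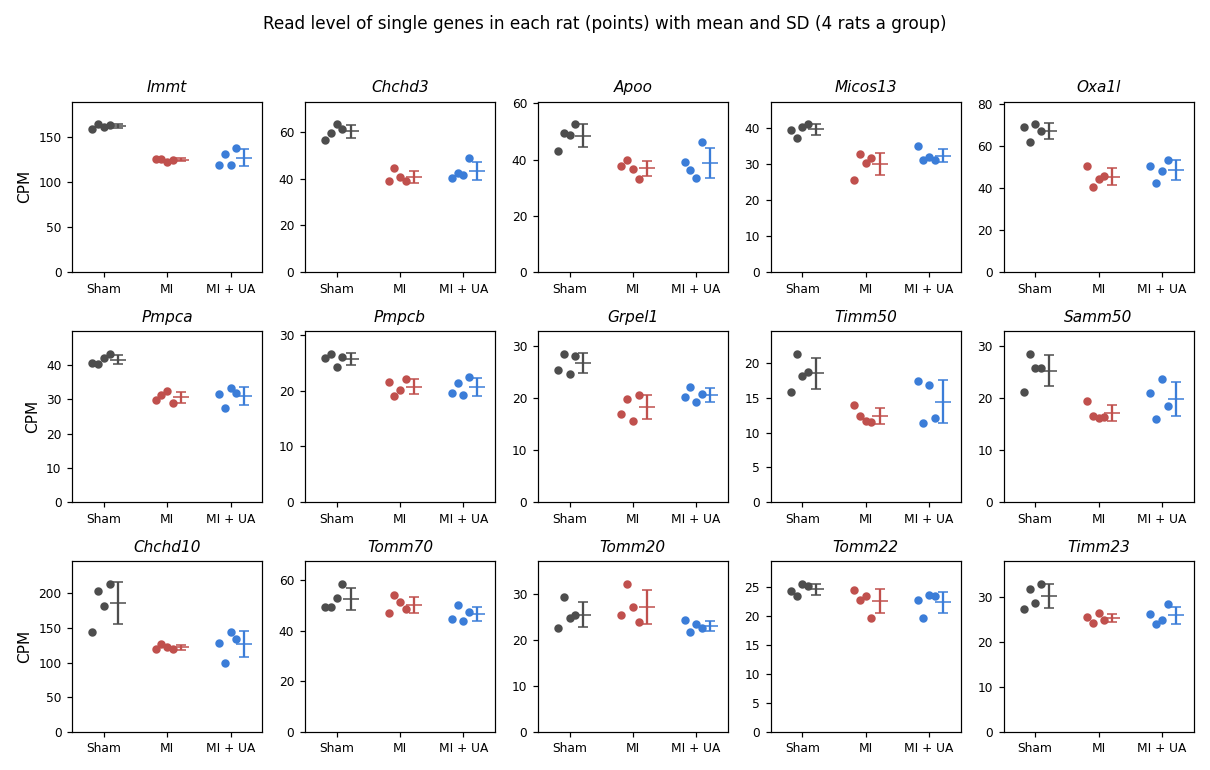
Read level in CPM (y axis, from 0) of 15 genes in each of the 12 rats, with the mean and SD of the 4 rats of each group beside the points. From Immt to Chchd10 the MI rats lie below all Sham rats; for Tomm70, Tomm20 and Tomm22 the groups overlap, and Timm23 does not overlap but did not pass the test.

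In the TIM23 translocase and its motor all 8 tested genes had log2 fold changes below 0 in MI, against 47% of all genes. Of these, 2 passed the test, against 5.53% of all genes that fell, and 7 had unadjusted p-values under 0.05, against 11.3%. Timm50 encodes the receptor that hands presequences from TOM to TIM23. It was at 15.8, 21.4, 18.2 and 18.7 CPM in Sham, 14.0, 12.4, 11.6 and 11.6 CPM in MI and 17.5, 11.4, 16.8 and 12.2 CPM in MI + UA. The log2 fold change in MI versus Sham was -0.57 (SE 0.15, edgeR adjusted p = 0.013), which became an adjusted p of 0.0534 without Sham rat 17. Grpel1, the nucleotide exchange factor of the motor chaperone, was at 25.5, 28.6, 24.7 and 28.1 CPM in Sham, 17.03, 19.9, 15.7 and 20.5 CPM in MI and 20.2, 22.2, 19.2 and 20.9 CPM in MI + UA. Every MI rat was below every Sham rat, with a log2 fold change of -0.55 (SE 0.11, edgeR adjusted p = 0.00174). Timm23, the channel itself, was at 27.3, 31.9, 28.6 and 33.0 CPM in Sham and at 25.6, 24.3, 26.5 and 24.9 CPM in MI, a log2 fold change of -0.25 that did not pass the test (edgeR adjusted p = 0.0964). Its partners Timm17a and Timm17b, which are alternative subunits of the channel, had similar log2 fold changes of -0.35 each (edgeR adjusted p = 0.139 and 0.134). The level summed over the 8 genes was 127 to 149 CPM in Sham and 107 to 112 CPM in MI.

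Cleavage of the presequence takes place in the matrix by a peptidase of a pair of subunits, and both genes fell. Pmpca, for the alpha subunit, was at 40.8, 40.4, 42.1 and 43.4 CPM in Sham, 29.8, 31.2, 32.5 and 29.004 CPM in MI and 31.6, 27.4, 33.4 and 31.9 CPM in MI + UA. Infarction went with a log2 fold change of -0.45 (SE 0.09, edgeR adjusted p = 0.00195). Pmpcb, for the catalytic beta subunit, was at 25.8, 26.7, 24.2 and 26.1 CPM in Sham, 21.6, 19.1, 20.2 and 22.1 CPM in MI and 19.7, 21.4, 19.2 and 22.5 CPM in MI + UA. It had a log2 fold change of -0.30 (SE 0.10, edgeR adjusted p = 0.0443), close to the threshold. Its call was lost in each of the 8 fits that left out 1 rat (largest adjusted p = 0.104). Pitrm1, which degrades the freed presequences, had a log2 fold change of -0.22 and did not pass (edgeR adjusted p = 0.126). Oxa1l encodes the insertase that places proteins into the inner membrane from the matrix side. It was at 69.0, 61.8, 70.4 and 67.0 CPM in Sham, 50.2, 40.5, 44.3 and 45.6 CPM in MI and 50.1, 42.1, 47.8 and 53.2 CPM in MI + UA. The MI rats lay well below the Sham rats, with a log2 fold change of -0.56 (SE 0.09, edgeR adjusted p = 0.000382).

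No gene passed the threshold among the small TIM chaperones and the oxidative import factor of the intermembrane space or for the TIM22 channel of the inner membrane. Timm22 was at 7.15, 10.8, 12.3 and 9.90 CPM in Sham and at 9.80, 11.1, 8.41 and 10.4 CPM in MI, a log2 fold change of -0.01 with a 95% interval from -0.33 to 0.32. Of the 5 small TIM genes tested, 4 had log2 fold changes below 0, against 47% of all genes. Timm8a1 and Timm8b, relatives that chaperone hydrophobic precursors, had -0.13 and -0.19 (intervals from -0.52 to 0.25 and from -0.56 to 0.19). Without single rats they ran from -0.26 (MI rat 89) to -0.03 (MI rat 61) and from -0.30 (Sham rat 32) to -0.10 (Sham rat 38). Timm10, named after its values were seen, had the lowest of the 5, with a log2 fold change of -0.59 (edgeR adjusted p = 0.105), on 538 reads over all rats. Chchd4 encodes MIA40, which folds cysteine-rich precursors as they arrive. With 166 reads over all rats its log2 fold change of -0.53 had an interval from -1.38 to 0.32, and without MI rat 61 it was -0.34, with no fit past the threshold.

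Among the other genes of the Chchd family, Chchd10 fell and its relative Chchd2 did not pass the test. Both encode small proteins of the intermembrane space, and variants of CHCHD10 are known in motor neuron disease and muscle disease. Chchd10 was at 145, 203, 182 and 214 CPM in Sham, 120.3, 126, 122 and 119 CPM in MI and 129, 99.7, 145 and 134 CPM in MI + UA. The Sham rats were widely spread, at 186 ± 30.6 CPM (SD, n = 4), and the MI rats were not, at 122 ± 3.27 CPM (SD, n = 4). The log2 fold change in MI versus Sham was -0.61 (SE 0.11, edgeR adjusted p = 0.00121). Chchd2 stands under ENSRNOG00000065713, with 1159 reads, and under ENSRNOG00000051180, with 21. Reads shared by near-identical copies may be split or lost in counting, so both values are uncertain. The first was at 9.79 ± 1.75 CPM for Sham (SD, n = 4) and at 8.81 ± 0.605 CPM for MI (SD, n = 4), a log2 fold change of -0.16 (95% interval from -0.48 to 0.16). The second had -0.26, with an interval from -2.34 to 1.82.

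Read depth differed between the genes that passed the test and the others. The 11 genes that fell had on average 150 to 1416 reads per rat (median 340), and the 29 others 1.75 to 496 (median 83.4). Of the 22 genes with a mean of at least 100 reads per rat, 11 fell, against 12.3% of all 7038 genes read that deeply, and of the 18 below, 0 did, against 1.28% of 11144 genes. The TOM receptors Tomm20 and Tomm70 were among the 22, with 3023 and 5951 reads over all rats, as were Tomm22, Tomm34 and Tomm40l. Tomm40, Tomm5 and Tomm7 were among the 18, with 789, 697 and 429 reads. Whether depth or a smaller difference kept the TOM genes from passing was not tested.

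**Figure D3:**
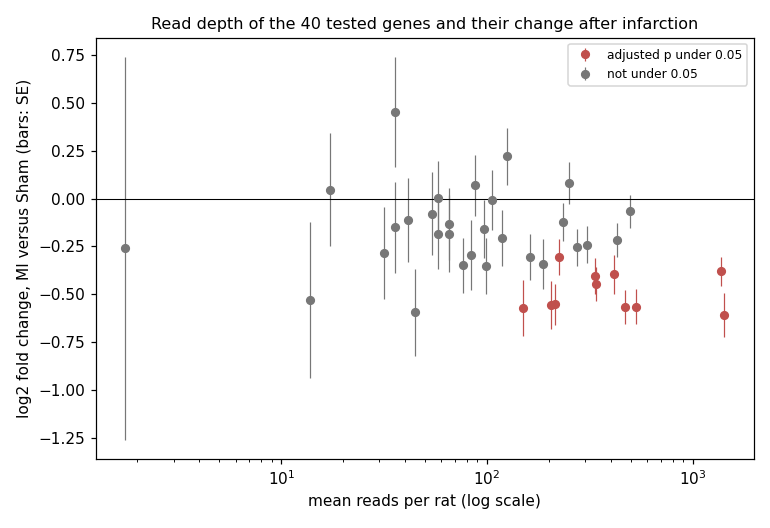
Log2 fold change in MI versus Sham (y axis, bars: SE) against the mean reads per rat (x axis, log scale) of the 40 tested genes. The 11 genes past the threshold lie at means from 150 to 1416 reads per rat, and none of the 18 genes under a mean of 100 passed.

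Other mitochondrial genes fell too. For the counts of lists that follow, 5.53% of all tested genes fell in MI and 5.82% rose. Of 64 tested nuclear genes of the respiratory chain, 43 fell in MI and 0 rose (median log2 fold change -0.47), and of 70 genes of the mitochondrial ribosome 19 fell and 0 rose, with a median of -0.31. The import and cristae genes, with 27.5% fallen, were near the ribosomal genes (27.1%) and below the respiratory chain (67.2%), and these shares were not tested against each other. The rat sums of the import and cristae genes were 1001 to 1152 CPM in Sham and 834 to 877 CPM in MI, and in MI stood on average at 77.9% of the Sham mean, the MICOS genes at 75.8%, the TIM23 genes at 77.3% and the TOM genes at 97.4%. The markers of cardiomyocytes moved alongside. Of 15 tested, 13 fell and Myh7 rose, their median log2 fold change was -0.45, and their sum was 61184 to 66934 CPM in Sham and 43243 to 51607 CPM in MI, on average 74.6% of the Sham mean. Of the fibroblast markers 8 of 10 rose, from a sum of 1260 to 1590 CPM in Sham to 2439 to 4192 CPM in MI, and of the macrophage markers 9 of 10, from 180.1 to 211 CPM to 336 to 487 CPM. Of 7 smooth muscle and pericyte markers 4 rose (sums of 550.5 to 570 CPM in Sham and 548 to 696 CPM in MI). Of 8 endothelial markers 1 fell (770.5 to 888 CPM and 697 to 822 CPM), and of 3 tested adipocyte markers out of 5 listed Plin4 fell (167 to 204 CPM and 127 to 141 CPM). The defining adipocyte markers Adipoq and Plin1 were at or near 0, with at most 2.12 and 1.17 CPM in any MI rat and at most 0 and 0.251 CPM in any Sham rat, and did not pass the test. In bulk tissue fewer cardiomyocytes and less RNA of these genes per cardiomyocyte cannot be told apart, and the part of the cell types in the fall was not tested.

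**Figure D4:**
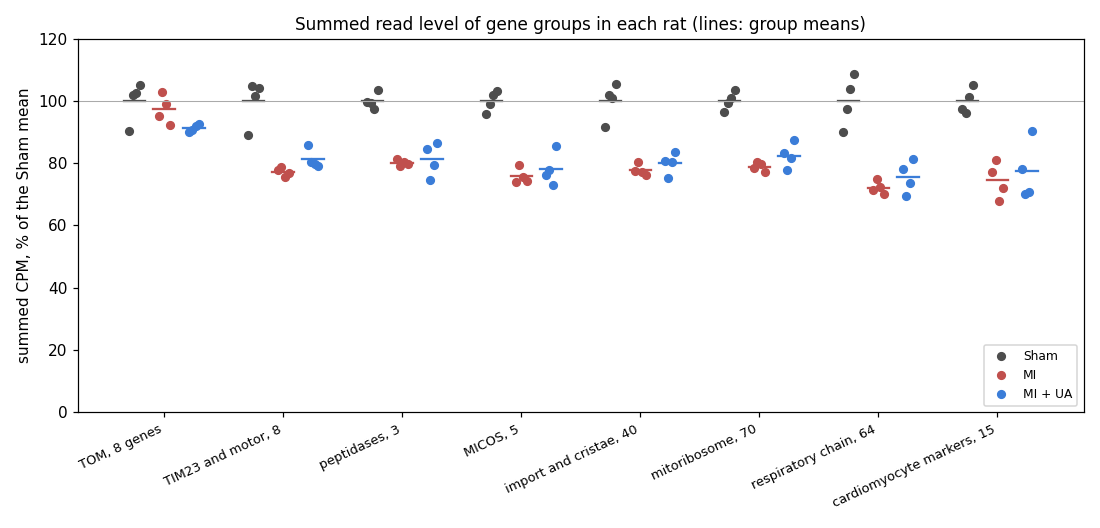
Summed CPM of each gene group in each rat, as a percentage of the Sham mean (y axis, from 0), with lines at the group means and the number of tested genes beside each name. The MI rats lie between 92.3% and 102.8% for the TOM genes, and between 74.0% and 79.4% for MICOS, close to the 67.9% to 81.1% of the cardiomyocyte markers.

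Of 48 further genes that work beside the import and cristae proteins, 46 were tested and 15 (32.6%) fell in MI, against 5.53% of all tested genes, and 0 rose, against 5.82%. Their median log2 fold change was -0.31. Phb1 and Tafazzin were not matched. Hspa9, the motor chaperone that GRPEL1 serves, had a log2 fold change of -0.53 (SE 0.09, edgeR adjusted p = 0.000403), and Dnajc19, a J protein of the same motor, -0.47 (SE 0.11, adjusted p = 0.00879). Clpx, the unfoldase of a matrix protease, had the smallest p-value, with a log2 fold change of -0.64 (SE 0.09, adjusted p = 0.000132). Hspd1, the chaperonin that folds imported proteins, had -0.53 and Atp5mg, for an ATP synthase subunit at the cristae edges, -0.48 (adjusted p = 0.00308 and 0.000923). Mtch2, Vdac1 and Vdac3, of the outer membrane, had -0.38, -0.39 and -0.37 (adjusted p = 0.00265, 0.00275 and 0.00597). Opa1, the inner membrane fusion GTPase that also shapes cristae, had -0.31 with overlapping groups (adjusted p = 0.0386).

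The MI + UA and MI rats were compared to ask whether UA changed these genes after infarction. No gene of the 40 passed the test, and 0 of all 18182 genes did. One gene, Tomm20, had an unadjusted p-value under 0.05, against 3.79% of all genes. It was at 25.5, 32.3, 27.2 and 23.9 CPM in MI and at 24.3, 21.7, 23.4 and 22.6 CPM in MI + UA, where 3 of the 4 rats were below all MI rats. The log2 fold change was -0.23 (SE 0.11, edgeR adjusted p = 1). At 0 of the 40 genes did the groups not overlap, against 2.34% of all genes. The median log2 fold change was 0.05, against 0.00 over all genes, with 27 genes above 0 and 13 below, against 51% of all genes above 0. The median was 0.02 without rat 66 and at most 0.07 without another rat. Timm50, Samm50 and Grpel1, which together with Tomm34 had the next smallest p-values, had log2 fold changes of 0.22, 0.20 and 0.18, with 95% intervals from -0.08 to 0.52, from -0.06 to 0.46 and from -0.04 to 0.40. For Timm50 and Samm50 it was rats 29 and 64 that stood highest among the MI + UA rats, at 17.5 and 16.8 CPM and at 21.0 and 23.7 CPM. The log2 fold change of Timm50 was 0.10 without rat 29, and that of Samm50 was 0.12 without rat 64. Without MI rat 61 that of Grpel1 was 0.11. Tomm34 had -0.22, with an interval from -0.51 to 0.08, and -0.12 without rat 29. Tomm20 had -0.15 without MI rat 57. For Immt the log2 fold change was 0.03, with an interval from -0.13 to 0.18, and for Oxa1l and Chchd3 it was 0.10 each, with intervals from -0.09 to 0.29 and from -0.09 to 0.28. Without rat 66 these became 0.05 for Oxa1l and 0.03 for Chchd3, and without MI rat 57 Oxa1l was again at 0.05. Oxa1l reached 0.15 without rat 58 and without MI rat 36. The intervals with all rats leave out, for the 3 genes, a rise in MI + UA as large as their fall in MI. Without rat 66, 0 of the 40 genes passed.

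**Figure D5:**
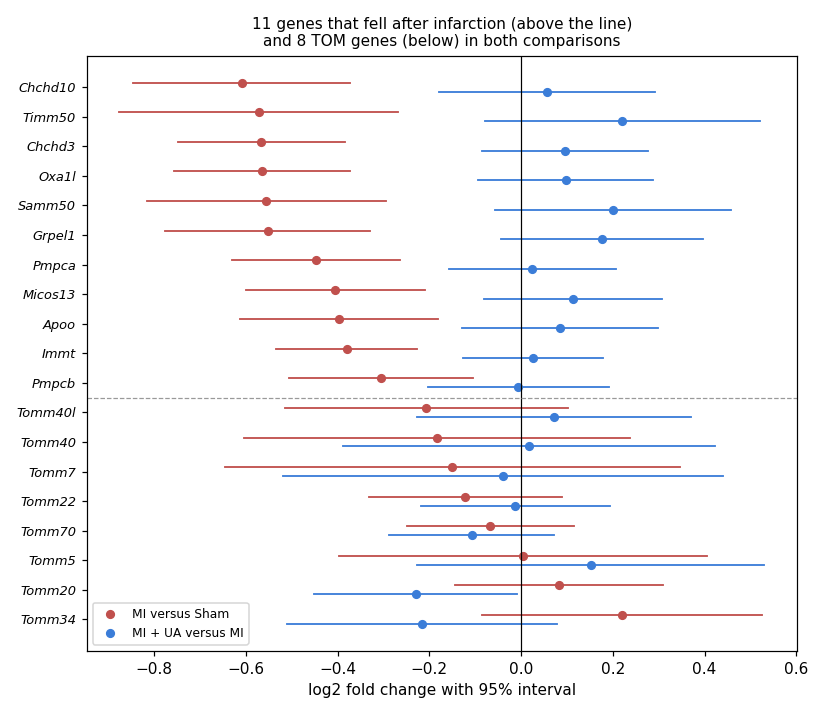
Log2 fold change with its 95% interval (x axis) of the 11 genes that fell in MI and of the 8 tested TOM genes, in MI versus Sham (red) and in MI + UA versus MI (blue). The MI rats enter both comparisons, so the red and blue points of a gene are not independent; in blue only the interval of Tomm20 leaves out 0.

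Among the neighbouring genes, 4 of 46 were higher at an unadjusted p-value under 0.05 with UA and 0 were lower, none past the adjusted threshold, against 1.86% of all genes higher. They were named after their values were seen. Hspd1 was at 44.6 ± 6.59 CPM for MI (SD, n = 4) and at 57.3 ± 6.33 CPM for MI + UA (SD, n = 4) without overlap, a log2 fold change of 0.37 (SE 0.11, edgeR adjusted p = 1). Its co-chaperonin gene Hspe1 had 0.25, the prohibitin gene Phb2 0.24 and Hspa9 0.19. The MI and MI + UA rats did not overlap at 2 of the 46 genes, Hspd1 and Phb2, against 2.34% of all genes.

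Against Sham, the MI + UA rats were lower at 7 of the 40 genes, against 4.27% of all genes that fell, and 0 rose, against 5.16%. They were Chchd10, Oxa1l, Chchd3, Pmpca, Grpel1, Immt and Pmpcb, with log2 fold changes of -0.55, -0.47, -0.47, -0.42, -0.38, -0.35 and -0.31. At 9 of the 40 genes every MI + UA rat was below every Sham rat, against 6.46% of all genes. Chchd10 was not among them, since rat 64 and Sham rat 12 both stood at 145 CPM. The median over the 40 genes was -0.22. Summed over the TOM genes, the MI + UA rats stood on average at 91.3% of the Sham mean, from 89.9% to 92.6%. The MICOS genes stood at 78.2% and the TIM23 genes at 81.3%. The cell type markers moved in this comparison too: 13 of 15 cardiomyocyte markers fell (median log2 fold change -0.39, sum 44742 to 57565 CPM in MI + UA), 8 of 10 fibroblast markers rose (sum 2502 to 4229.9 CPM) and 9 of 10 macrophage markers rose (sum 285 to 515 CPM). Of the endothelial markers 1 of 8 fell (648 to 782 CPM), of the smooth muscle and pericyte markers 1 of 7 rose (549 to 672 CPM), and of the adipocyte markers Plin4 alone of 3 fell. Their part in the fall was not tested. Of the 4 other genes that fell in MI, Micos13 (-0.29, edgeR adjusted p = 0.0522), Apoo (-0.31, 0.0617), Samm50 (-0.35, 0.0775) and Timm50 (-0.35, 0.142) had adjusted p-values over 0.05. Samm50 passed without Sham rat 12 and without rat 64. That a gene passed against Sham in one infarcted group and not in the other does not show that the groups differ, and the direct comparison found no difference past the threshold. The call of Grpel1 was lost in 4 of the 8 fits that left out 1 rat (Sham rats 17 and 38 and MI + UA rats 29 and 64, largest adjusted p = 0.0862) and that of Pmpcb in 7, all but the fit without rat 66. Without rat 66, 8 genes passed, with Apoo added, which also passed without Sham rat 12.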

How the data were processed

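RNA of 12 rat hearts was sequenced as read pairs. Per the submitters' processing notes and the paper's methods, the authors mapped the reads with STAR 2.6.1c to mRatBN7.2, counted them per Ensembl gene with HTSeq and summarised quality with MultiQC 1.8. The deposited values are raw read counts, with no normalization. The labels name both ribosomal depletion and polyA RNA, and the paper's methods give ribosomal depletion for the rat libraries. The strand setting of the counting was not given in the sources used here. A further MI + UA library is described in the labels' protocol and was not analysed here. The paper's methods state that an MI + UA sample was an outlier in a principal component analysis and was left out by the authors. The 5 summary lines of the counting tool stayed out of library sizes and tests.

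Genes whose counts summed to at least 10 entered the test with edgeR 4.0.16 (R 4.3.3, glmQLFit and glmQLFTest, TMM, 3 groups in one fit). The code was also run on counts simulated from edgeR's own fit, which cannot show how well that model describes these libraries. Adjusted p-values are Benjamini-Hochberg over all 18182 genes, the threshold was 0.05, and standard errors are the log2 fold change divided by the square root of F. DESeq2 1.42.0, other filters, other scalings and fits without single rats were alternatives. Each rat gave 1 library, so p-values judge a group difference against the spread between rats, which the fit estimated over the 3 groups together. The genes named were those past the threshold in any comparison, the most read gene of each role, the 5 with the smallest p in MI + UA versus MI, and paralog pairs. Of the neighbouring genes, the 8 with the smallest p among those past the threshold, Opa1 and Hspa9 were named. The genes, lists and tests were chosen with earlier results of these data known. Promoter strings other than the 4 reported were also looked at and are not reported.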

Additional observations from a re-analysis of the deposited data

Results flagged for a closer look

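Among 84 sets of 4 rats (the log2 CPM of single genes and library measures in each group), 2 had a rat set apart from the other three by more than Dixon's 95% critical value. Chance gives about 1 in 20, or about 4 of 84. For Timm17a in MI + UA, rat 64 was highest, at a log2 CPM of 3.47 with the next rat at 3.16 (ratio of gap to range 0.857). For the share of nuclear reads that lay on the import and cristae genes in MI, rat 89 was lowest, at 0.189% with the next rat at 0.193% (ratio 0.942), and the MI rats as a whole differed little in it.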

How the results depend on the processing

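In MI versus Sham, between 10 and 11 of the import and cristae genes fell under the 6 other settings (DESeq2, fitting the compared groups alone, edgeR's own filter, no filter, DESeq2 size factors in edgeR and TMM without the mitochondrially encoded genes), and all of these were among the 11. With no filter Pmpcb was lost. Leaving out each rat gave 9 to 11, with a median from -0.30 to -0.22, and Timm21 was added without Sham rat 12. In MI + UA versus Sham the count was 6 to 9 under the settings and 5 to 8 without single rats, with Micos13 or Apoo added or Pmpcb lost under the settings. Samm50 was added without Sham rat 12 and without MI + UA rat 64, and Apoo without Sham rat 12 and without MI + UA rat 66. The median there was between -0.29 (without Sham rat 12) and -0.20 without single rats. In MI + UA versus MI 0 of these genes passed under any setting. Over all genes 3 passed with no filter, and between 0 and 1 without single rats, the 1 without MI rat 36. The cause was not tested. Leaving out single rats was followed for the 26 genes named by rule in MI versus Sham and for 13 genes in MI + UA versus MI, not for the other tested genes. Among these, signs turned for genes that had not passed in that comparison: in MI versus Sham for Timm22 (-0.14 to 0.10), Tomm20 (-0.0013 to 0.15) and the Chchd2 gene with 21 reads (-0.64 to 0.42), and in MI + UA versus MI for Apoo (-0.014 to 0.15), Chchd10 (-0.011 to 0.15), Immt (-0.019 to 0.054), Pmpca (-0.0073 to 0.076) and Pmpcb (-0.054 to 0.024). Other values that had not passed moved by over 1.5 times without single rats in MI versus Sham: Tomm70 (-0.10 to -0.0085, the latter without Sham rat 38), Tomm34 (0.15 without that rat) and the Chchd2 gene with 1159 reads (-0.27 without Sham rat 12, -0.04 without Sham rat 38). No paired analysis was possible because each rat belongs to 1 group and numbers are not shared. None of the 18 genes with a mean under 100 reads per rat passed in MI versus Sham, and whether depth or a smaller difference set this was not tested.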
